A study of Mus musculus with 2 samples.

Results

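The 8 genes described here encode R-spondin receptors, stem cell markers and feedback regulators of Wnt signalling that have been used to mark stem and progenitor cells of the stomach: Lgr4, Lgr5, Lgr6, Lrig1, Tnfrsf19, Rnf43, Znrf3 and Axin2. They were taken by name, 8 of 21911 protein-coding genes of the GENCODE M21 annotation, and each locus runs from 10 kb before the gene to 10 kb after it on mouse build mm10. The data are DNase-seq, in which DNase I cuts accessible DNA and the cut ends are sequenced, of stomach tissue from B6NCrl mice on the day of birth (age 0 days). There is 1 group, with 2 biological replicates of 1 library each and no treatment, mutant or second tissue, so nothing could be tested between groups and no p-value is given. One donor is recorded for the 2 libraries, without a statement on separate animals or pooling, so the spread between the libraries may be partly technical. Sex was not collected, the extraction document in the labels is a nuclei protocol for cultured cells, and the labels name 2 instruments for replicate 2 and none for replicate 1.

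R-spondins are secreted proteins that bind the receptors LGR4, LGR5 and LGR6. With R-spondin bound, these receptors draw off the transmembrane ubiquitin ligases RNF43 and ZNRF3, which otherwise remove Frizzled Wnt receptors from the cell surface, and Wnt signalling through beta-catenin rises. Beta-catenin then acts with TCF/LEF factors on target genes, among them Axin2, Lgr5, Rnf43, Znrf3 and Tnfrsf19. In the adult stomach Lgr5 marks basal gland cells, Lrig1 and Axin2 have been used to trace longer-lived progenitors, and Tnfrsf19 (Troy) marks a subset of chief cells. Accessibility shows where the DNA of a locus is open, not how much RNA is made.

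Replicate 1 held 139374 peaks and replicate 2 held 152779 on the autosomes, X and Y. Peaks are narrow intervals of at most 150 bp, and each carries a signal value given by the authors, a whole number with no stated unit or depth scaling, which was used only to rank peaks within its own list. A rank of 99 means a higher signal than 99% of that replicate's peaks. Hotspots are wider stretches of raised cutting with a -log10 q of 1.3 to 100. The top value of 100 was carried by 38.9% of all hotspots in replicate 1 and 39.4% in replicate 2. In the loci described here no hotspot lay between 6.0 and 100. A value of 100 may thus be a ceiling, and it does not rank such hotspots among themselves. Peaks of replicate 1 and replicate 2 with 1 bp or more in common were merged, which gave 105606 shared regions. The number of reads per library is unknown. As a check of the tissue label, 9 of 10 stomach markers and 5 of 5 epithelial markers had a shared region within 1 kb of a start, as did 5 of 6 smooth muscle, 2 of 5 endothelial, 1 of 6 immune, 3 of 5 hepatocyte, 3 of 5 intestinal (Lgr5 among them) and 2 of 5 skeletal muscle markers, beside 66.4% of all protein-coding genes. The stomach exception was Barx1, with a promoter peak in replicate 1 alone. The smooth muscle exception was Acta2, with a promoter peak in replicate 2 alone. The hepatocyte genes Alb and Cyp2e1 had 0 shared regions in their loci, while Afp, Apoa1 and Ttr had one at a start. The intestinal regulators Cdx1 and Cdx2 had none at a start, while Vil1, Alpi and Lgr5 did. Cdx1 and Cdx2 each had 5 shared regions in the locus, and Cdx1 had a promoter peak in replicate 1. The check thus does not separate stomach from liver or intestine cleanly. The tissue is a mixture, so an open site in few cells and a weakly open site in many cannot be told apart.

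The sequences below are the shared regions of the 8 loci that hold the string CTTTGAT, or ATCAAAG on the other strand, a core of the DNA site of TCF/LEF factors. They are shown because this was the string whose share in the 8 loci stood farthest above its share in all shared regions. Each is on the gene's own strand, from the mm10 genome (GRCm38.p6), with the string in capitals. For the pair of Axin2 regions that reach into a transcribed leader, only 30 bases around the string are given.
Tnfrsf19, intron 3, chr14:61012476-61012625: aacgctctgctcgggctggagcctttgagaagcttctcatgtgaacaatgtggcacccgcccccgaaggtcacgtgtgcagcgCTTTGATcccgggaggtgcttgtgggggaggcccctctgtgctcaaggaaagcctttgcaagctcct
Tnfrsf19, intron 5, chr14:60989416-60989585: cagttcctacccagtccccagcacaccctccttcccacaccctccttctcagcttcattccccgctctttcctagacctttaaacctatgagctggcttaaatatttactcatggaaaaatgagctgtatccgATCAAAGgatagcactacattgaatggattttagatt
Rnf43, intron 2, chr11:87689536-87689705: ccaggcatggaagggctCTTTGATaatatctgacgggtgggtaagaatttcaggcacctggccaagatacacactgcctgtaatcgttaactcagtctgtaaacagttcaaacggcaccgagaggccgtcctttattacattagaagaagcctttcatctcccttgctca
Rnf43, intron 2, chr11:87709676-87709865: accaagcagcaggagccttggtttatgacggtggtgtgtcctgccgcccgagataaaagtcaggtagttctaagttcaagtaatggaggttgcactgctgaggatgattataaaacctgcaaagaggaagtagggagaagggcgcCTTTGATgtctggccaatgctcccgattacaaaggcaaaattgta
Znrf3, intron 1, chr11:5411676-5411845: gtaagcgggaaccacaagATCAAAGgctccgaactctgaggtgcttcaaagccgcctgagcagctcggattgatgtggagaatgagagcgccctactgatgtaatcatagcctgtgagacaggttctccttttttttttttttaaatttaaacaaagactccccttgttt
Znrf3, intron 1, chr11:5347036-5347225: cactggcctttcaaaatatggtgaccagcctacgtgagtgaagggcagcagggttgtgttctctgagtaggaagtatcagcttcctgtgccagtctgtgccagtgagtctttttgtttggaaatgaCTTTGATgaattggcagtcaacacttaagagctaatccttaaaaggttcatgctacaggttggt
Znrf3, intron 2, chr11:5297216-5297385: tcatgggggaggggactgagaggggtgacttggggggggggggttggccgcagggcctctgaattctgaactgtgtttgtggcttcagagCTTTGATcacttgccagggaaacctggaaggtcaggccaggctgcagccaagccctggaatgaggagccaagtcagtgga
Axin2, intron 1, chr11:108922236-108922425: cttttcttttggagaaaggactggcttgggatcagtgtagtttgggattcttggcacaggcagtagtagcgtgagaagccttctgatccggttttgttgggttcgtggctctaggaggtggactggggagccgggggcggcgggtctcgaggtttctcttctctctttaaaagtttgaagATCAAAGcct
Axin2, first start, site at chr11:108920416-108920445: agccggctgcgCTTTGATaaggtcctggca
Axin2, intron 1, site at chr11:108921221-108921250: cggccggcgcgCTTTGATgtgcggggcggc
All 10 lay in the loci of Tnfrsf19, Rnf43, Znrf3 and Axin2. In 7 of them the string read CTTTGAT along the gene and in 3 it read ATCAAAG. The 7 full sequences of the first 3 genes all lie in introns, from 26.5 to 148 kb after the reference start. Those of Axin2 lie within 2 kb of its start.

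A second set shows the strongest shared region, by mean rank of both replicates, of each of 3 loci, Lgr4, Lrig1 and Tnfrsf19. None of these 3 regions held a TCF/LEF string. Capitals mark a GC box (GGGCGGGG), an AP-1 string (TGANTCA) or a GATA string (AGATAA), on either strand.
Lgr4, upstream of the start, chr2:109917476-109917645: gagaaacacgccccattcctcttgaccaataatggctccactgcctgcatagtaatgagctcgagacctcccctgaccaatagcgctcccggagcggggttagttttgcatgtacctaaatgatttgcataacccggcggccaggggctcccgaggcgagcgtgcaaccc
Lrig1, upstream of the start, chr6:94700256-94700425: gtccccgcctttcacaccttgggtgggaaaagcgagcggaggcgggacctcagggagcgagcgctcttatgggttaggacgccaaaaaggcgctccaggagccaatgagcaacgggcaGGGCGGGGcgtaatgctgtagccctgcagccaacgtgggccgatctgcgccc
Tnfrsf19, intron 5, chr14:60993616-60993785: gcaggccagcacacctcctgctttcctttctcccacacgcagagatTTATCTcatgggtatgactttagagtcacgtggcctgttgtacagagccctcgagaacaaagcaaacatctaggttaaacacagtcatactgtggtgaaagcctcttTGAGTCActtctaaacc
The Lgr4 sequence held none of the 10 strings searched, the Lrig1 sequence held 1 GC box, and the intronic Tnfrsf19 sequence held a GATA and an AP-1 string.

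Across the 8 loci there were 122 peaks in replicate 1 and 131 in replicate 2, and 98 shared regions. Every gene had a shared region within 1 kb of an annotated start (8 of 8, beside 66.4% of all protein-coding genes), and 7 of 8 within 250 bp (62.6% of all). Lgr6 was the exception at 250 bp. Of the 122 and 131 peaks, 82.0% and 77.1% were shared, against 77.6% and 70.7% of all peaks. By the centre of the region, 70 lay in introns, 16 upstream of the gene, 7 in exons and 5 downstream. At a promoter of the gene, meaning within 1 kb of any of its annotated starts, lay 27 regions, and 71 lay elsewhere. All 98 overlapped a hotspot in both replicates.

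The loci are long, with a median of 116 kb against 37.4 kb for all protein-coding loci, and longer loci hold more regions. The median was 12 shared regions per locus, against 4 for all. Each gene was therefore set beside protein-coding loci of like length, in 1 of 20 equal-sized classes. Rnf43 with 18 regions, Znrf3 with 17, Lgr4 with 14, Lrig1 with 12 and Axin2 with 10 lay above the upper quartile of their class, which were 9, 14, 11, 11 and 7. That is 5 of 8 genes, beside 21.4% of all loci. Without the 8 regions within 1 kb of a start of another gene it was 4 of 8, as Lgr4 fell to 11 regions, while the class values still count such regions. Lgr6 with 12 lay above its class median of 9 (10 regions without those), which makes 6 of 8 above the median (44.0% of all loci). Tnfrsf19 had 8 regions, equal to its class median, and Lgr5 had 7, below its class median of 9. Per 10 kb of locus, Axin2 (1.98) and Rnf43 (1.94) were the densest and Lgr5 (0.445) the sparsest. A class does not match length fully: Znrf3, of 189 kb, shared its class with Lgr6, of 142 kb. Their densities were 0.902 and 0.845.

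**Figure D1:**
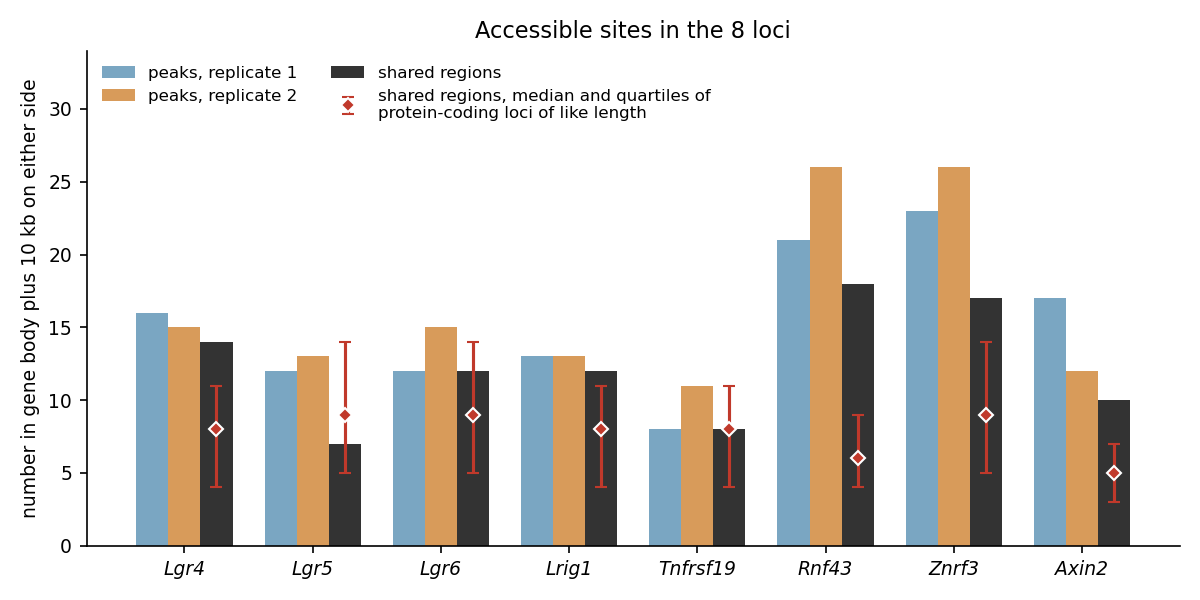
Number of peaks in replicate 1 (blue), peaks in replicate 2 (orange) and shared regions (black) in each locus. Red diamonds with bars give the median and quartiles of shared regions in protein-coding loci of like length. Rnf43 and Znrf3, with 18 and 17 shared regions, lie highest, and Lgr5, with 7, lies under the diamond of its class.

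LGR4, the most widely expressed of the R-spondin receptors, is encoded at chr2:109917647-110014257 on the plus strand (96.6 kb, 18 exons). The locus held 16 peaks in replicate 1 and 15 in replicate 2, of which 14 regions were shared, and the counts differed by a single peak. The strongest region of the locus was at the promoter, 86 bp before the start, with signal 118 in replicate 1 (rank 99.2) and 130 in replicate 2 (rank 99.8). It lay in a hotspot of 558 bp in replicate 1 and 574 bp in replicate 2, at the largest -log10 q of 100 in both. Its sequence is the first of the second set above. Intron 1 held 6 shared regions between 4.28 and 18.6 kb after the start, with mean ranks of 54.9 to 78.0. In intron 4 a pair lay at 74.3 and 75.2 kb, with signal 89 and 95 in the first and 72 and 75 in the second. The last 3 regions, after the gene's end, lay within 1 kb of starts of Ccdc34, the neighbouring gene, and cannot be assigned to Lgr4 from these data. Without them Lgr4 would hold 11 regions, equal to the upper quartile of its class and no longer above it. Both later annotated starts of Lgr4, which belong to noncoding transcripts, had no shared region within 1 kb.

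LGR5, the receptor best known as a marker of gut stem cells, is encoded at chr10:115450311-115587780 on the minus strand (137 kb, 18 exons). It had the fewest shared regions of the 8 genes and the lowest agreement between replicates among them: 12 and 13 peaks gave 7 shared regions, so that 58.3% of replicate 1 peaks and 53.8% of replicate 2 peaks were shared. Of the 7 regions, 3 lay at the start. The first, 9 bp after it, was weak, with signal 31 (rank 24.4) and 40 (rank 27.2). The next, 269 bp after it and within 18 bp of a second annotated coding start, had the highest mean rank of the 7, with signal 53 (rank 64.7) and 85 (rank 85.3), although in replicate 1 the region 3.81 kb upstream ranked higher. The 3rd lay in intron 1 at 739 bp, with signal 53 and 54. The promoter was thus open in both libraries, at ranks well below those of Lgr4. A pair of regions lay upstream, 3.81 kb before the start with signal 57 (rank 69.7) and 58 (rank 58.5), and 5.67 kb before it with signal 34 (rank 30.9) and 69 (rank 71.9). The latter was the region of the 98 whose ranks differed most between the replicates, as the plot of ranks shows. The remaining pair, in introns 1 and 2 at 40.9 and 81.8 kb, had mean ranks of 18.7 and 33.3.

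In the body of Lgr5, 11 peaks were found in a single replicate, 5 in replicate 1 and 6 in replicate 2. A peak of replicate 1 at 26.4 kb (signal 64, rank 76.8) and a peak of replicate 2 at 26.1 kb (signal 61, rank 62.5) stood out from the others by rank. They lie in intron 1 at chr10:115561296-115561445 and chr10:115561556-115561705, and do not touch, so they were not counted as shared. The hotspots there did overlap: they were 530 bp wide in replicate 1 and 678 bp in replicate 2, both with a -log10 q of 100. The count of 7 for Lgr5 thus leaves out a site that both libraries called as a hotspot. With either replicate alone the locus held 13 (replicate 2) or 12 (replicate 1) regions.

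LGR6, the third of these receptors, is encoded at chr1:134983301-135105276 on the minus strand (122 kb, 18 exons). It was the only one of the 8 genes with no shared region within 250 bp of an annotated start. The nearest to the reference start, 885 bp upstream, had signal 51 (rank 61.9) and 71 (rank 73.9). On the start itself, 5 bp after it, replicate 2 had a peak of signal 43 (rank 33.1) with a hotspot of 232 bp, and replicate 1 had neither. All 12 peaks of replicate 1 were shared, and 3 of the 15 peaks of replicate 2 were not. The strongest region lay in intron 1, 28.6 kb after the start (chr1:135076556-135076705), with signal 76 and 77 (ranks 85.5 and 79.4). A late region in intron 17 at 116 kb followed, with signal 63 and 72. The intron 6 region at 84.1 kb, with signal 31 and 43, was the only one near the later starts, 870 bp from that of a noncoding transcript. The later coding start of Lgr6 had no shared region within 1 kb. The regions 7.62 and 5.04 kb upstream lay within 1 kb of starts of Ptprv, a neighbouring gene annotated as noncoding, and the first of them and the intron 4 region at 74955 bp each held a CTCF string.

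Among the 3 receptors Lgr4 was thus highest by number of regions for the length of its locus and by promoter rank. By number of regions Lgr4 lay at percentile 87.9 of its length class, Lgr6 at 67.4 and Lgr5 at 37. Lgr5 and Lgr6 changed places by promoter: the strongest promoter region had a mean rank of 99.5 in Lgr4, 75 in Lgr5 and 67.9 in Lgr6. These values are not fully alike. The regions of Lgr4 and Lgr5 lay 86 and 18 bp from a start, and that of Lgr6 lay 885 bp from one.

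**Figure D2:**
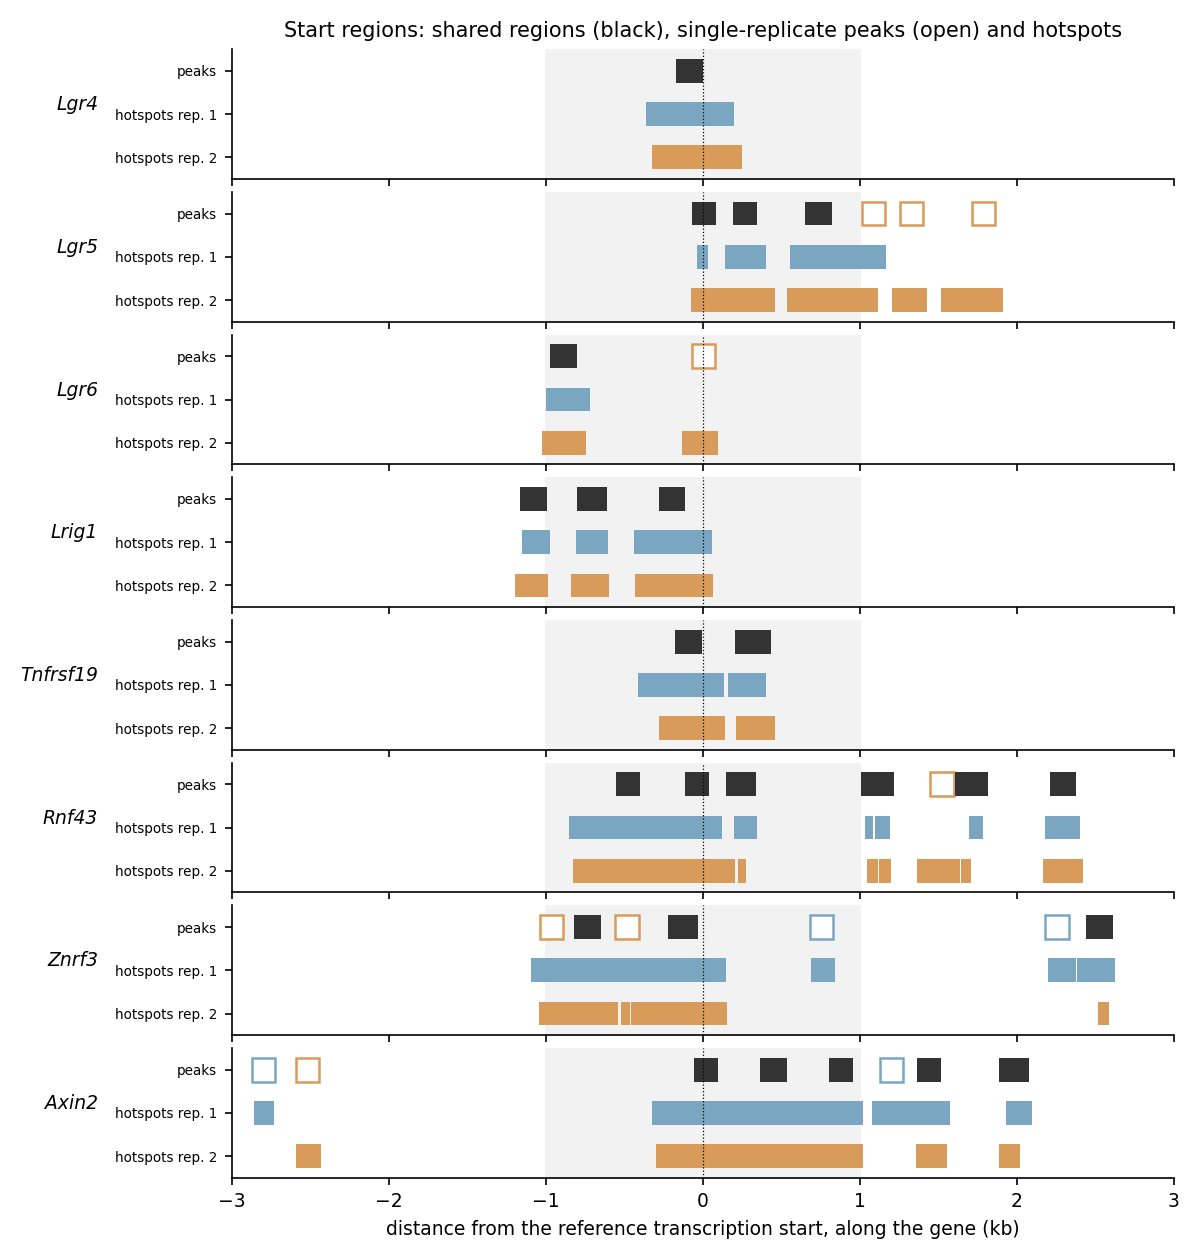
The 3 kb on either side of the reference start of each gene, drawn along the gene. Black boxes are shared regions, open boxes are peaks of a single replicate (blue for replicate 1, orange for replicate 2), bars are hotspots of each replicate, and grey marks the 1 kb on either side of the start. Lgr6 has only an orange open box on its start, and Rnf43 and Axin2 have rows of shared regions after theirs.

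LRIG1, a transmembrane inhibitor of ERBB receptors that marks slow-cycling progenitors of several epithelia, is encoded at chr6:94604529-94700158 on the minus strand (95.6 kb, 20 exons). Each replicate had 13 peaks and 12 were shared. Its promoter had the highest signal of the 98 regions in replicate 1: the region 196 bp before the start had signal 124 (rank 99.8) in that replicate and 123 (rank 99.2) in replicate 2. A pair of further regions lay at 706 bp (signal 68 and 96) and 1.08 kb (signal 70 and 71) upstream. These 3 regions held 4 GC boxes, and none of the remaining 9 Lrig1 regions held one. Intron 1 held 5 regions, of which those at 3.26 and 7.54 kb (mean ranks 83.8 and 81.0) and at 23.1 kb (signal 84 in both, mean rank 87.1) were the strongest. The 4 later annotated starts, all of noncoding transcripts, had no shared region within 1 kb.

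TNFRSF19, also called TROY, a member of the tumour necrosis factor receptor family, is encoded at chr14:60963875-61046490 on the minus strand (82.6 kb, 10 exons). There were 8 peaks in replicate 1 and 11 in replicate 2. All 8 of replicate 1 were shared. Along with Lgr6 it was a gene whose strongest region did not lie at a promoter. In the other 6 genes it did, beside 53.6% of all protein-coding loci with a shared region. The strongest region of Tnfrsf19 was in intron 5, 52.8 kb after the start, with signal 102 (rank 96.2) and 119 (rank 98.5). It is the last sequence of the second set above. The reference start had a region 92 bp upstream with signal 75 and 87 (ranks 84.9 and 86.5) and a weaker one 318 bp after it with signal 37 and 52. A second cluster of coding starts, 8.52 kb inside, was open too, with signal 65 and 80. That region held 2 GC boxes and also lay at the start of the noncoding gene Gm41168, so it cannot be given to either gene alone. Both TCF/LEF regions of Tnfrsf19 lay in introns at a -log10 q of 100 in both replicates: the one in intron 3 had signal 76 and 81, and the one in intron 5, 4.2 kb beyond the strongest region, had signal 60 and 68.

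RNF43, the first of the 2 ubiquitin ligases that R-spondins counter, is encoded at chr11:87662722-87735539 on the plus strand (72.8 kb, 10 exons). With 21 and 26 peaks and 18 shared regions it lay at percentile 98.4 of its length class, the highest of the 8 genes. In all, 7 regions lay at promoters, 6 of them within 2.5 kb of the reference start, where 4 annotated starts are spread over less than 2 kb. The strongest was the region 476 bp upstream (111 bp from the first annotated start), with signal 108 and 116 (ranks 97.7 and 97.9). The 5 regions that followed were weaker, with mean ranks of 27.1 to 74.4. The coding start at 36.8 kb had no shared region within 1 kb.

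The shared regions in intron 2 of Rnf43 had mean ranks of 60.1 to 96.9. Over all shared regions, 26.4% have a mean rank above 80. The region at 26.5 kb had signal 104 (rank 96.7) and 112 (rank 97.0). It held a TCF/LEF string and a FOXA string (TGTTTAC) and is shown above. A region at 34.3 kb had signal 87 and 90, with a GATA and an AP-1 string, and one at 47.1 kb had signal 93 and 97. The second TCF/LEF region, at 46.7 kb, lay 400 bp before the latter, with signal 51 (rank 61.9) and 75 (rank 77.7) and a GATA string. The last 2 regions of the locus, with ranks of 83 to 95, lay at starts of the neighbouring gene Supt4a. Without them the locus would still hold 16 regions.

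ZNRF3, the second ligase, is encoded at chr11:5276324-5444847 on the minus strand (169 kb, 9 exons). It had 23 and 26 peaks and 17 shared regions, with 5 and 8 peaks in a single replicate. The strongest was at the promoter, 124 bp upstream, with signal 106 (rank 97.2) and 115 (rank 97.7), a G+C content of 78.4% and 1 GC box. Another lay 734 bp upstream, with signal 68 and 72. In replicate 1 a single hotspot of 1245 bp covered both. The other regions were intronic and mostly moderate: the highest, at 7.63 kb in intron 1, had signal 83 and 75, and the next at 29.1 kb had 71 and 62. The second annotated coding start, at 63.1 kb, had no shared region within 1 kb, and the nearest lay 1141 bp from it. The TCF/LEF regions at 33.1, 97.7 and 148 kb had mean ranks of 59.5, 34.3 and 51.0. The last of these lay 320 bp from another region, of signal 64 and 60, within hotspots of 975 bp in replicate 1 and 1215 bp in replicate 2.

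AXIN2, a scaffold of the complex that degrades beta-catenin and a widely used readout of Wnt signalling, is encoded at chr11:108920349-108950783 on the plus strand (30.4 kb, 11 exons). It had 17 peaks in replicate 1 but 12 in replicate 2, the only one of the 8 genes besides Lgr4 with more in replicate 1, and 7 of the 17 were found in replicate 1 alone. These 7 were weak, with signals of 27 to 40. The 10 shared regions lay at percentile 91.3 of the length class. Of these, 5 lay within 2 kb of the reference start. The region on the start, centred 22 bp after it, had signal 98 (rank 95) and 108 (rank 95.8). The next, at 452 bp, lay on a second annotated coding start and had signal 69 and 88. Those at 882 bp, 1.44 kb and 1.98 kb had signal 51 and 50, 34 and 54, and 33 and 43. One hotspot of 1349 bp in replicate 1 and 1325 bp in replicate 2 ran over the first 3. The TCF/LEF strings lay in the 1st, the 3rd and the 5th of these 5 regions. Away from the start the strongest region was in intron 2 at 5.06 kb, with signal 55 and 75.

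**Figure D3:**
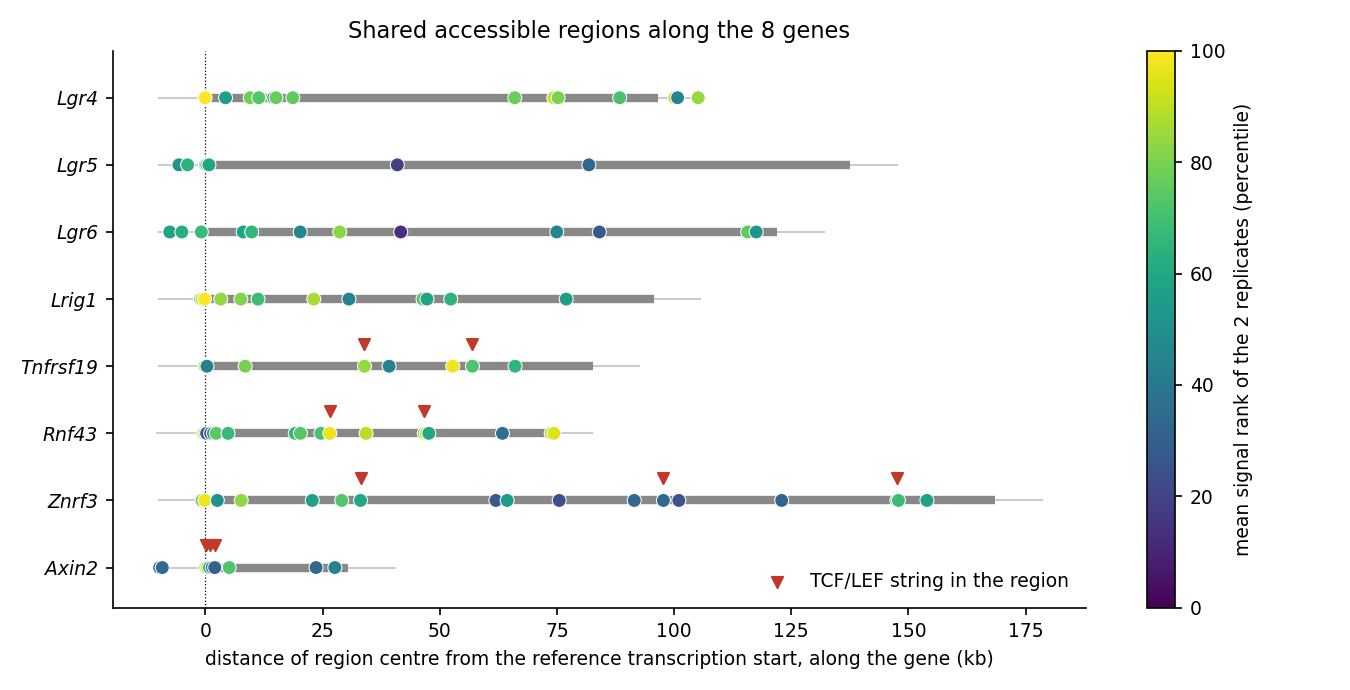
Shared regions (dots) along each gene, by distance of the centre from the reference start in kb. Dark bars are gene bodies, thin lines the 10 kb on either side, colour the mean signal rank of both replicates, and red triangles mark regions with a TCF/LEF string. Triangles appear in the rows of Tnfrsf19, Rnf43, Znrf3 and Axin2, and in Axin2 they gather at the start.

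By signal rank the 98 regions lay close to all shared regions: the median mean rank was 65.7, against 61.9 for all shared regions. Above a mean rank of 95 lay 7 of the 98 (6.51% of all shared regions do), and above 90 lay 11 (13.2% of all). The 7 were the start regions of Lgr4, Lrig1, Rnf43, Znrf3 and Axin2 and the intronic regions of Rnf43 at 26.5 kb and Tnfrsf19 at 52.8 kb. The median was 67.9 for regions at the genes' own promoters and 65.3 for the others. Over all shared regions those near any start ranked higher (median 75.3) than those elsewhere (56.7). The ranks were higher in replicate 2 for 44 of the 98. Peaks found in one replicate were weaker, with a median signal of 36.5 for 22 peaks in replicate 1 and 43 for 30 in replicate 2, against 53.5 and 62.5 for the shared regions. Of the hotspots in the loci, 35.3% and 33.1% reached a -log10 q of 100, against 38.9% and 39.4% of all.

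**Figure D4:**
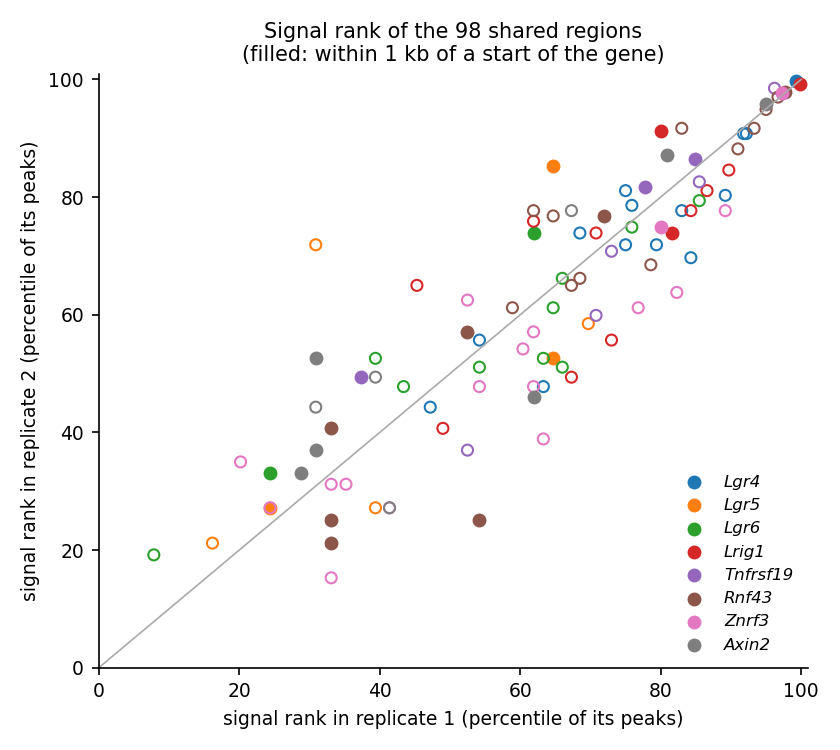
Signal rank of each of the 98 shared regions in replicate 1 (x axis) and replicate 2 (y axis), as percentiles of the peaks of that replicate, coloured by gene. Filled points lie within 1 kb of a start of the gene, and the line marks equal ranks. The upper right corner holds start regions and a few intronic ones, and an open orange point of Lgr5 at 30.9 and 71.9 lies farthest from the line.

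The TCF/LEF string was found in 10 of the 98 regions (10.2%), against 2.35% of all 105606 shared regions. In windows of 150 bp around the centres, which removes the effect of width, the shares were 9.18% and 2.00%. At least 2 such regions were found in 4 of the 8 loci, against 2.16% of 5558 protein-coding loci with 7 to 18 shared regions. The limit of 2 is the lowest count among these 4 loci, and 7 to 18 is the range of the 8 loci. Both limits thus follow the values compared, and the strings were chosen with earlier results of these data known, so this is a description only. The other 4 genes, Lgr4, Lgr5, Lgr6 and Lrig1, had 45 shared regions and none with the string, where 2.35% of all shared regions hold it. With so few regions, 0 is near that share and does not show a lack of the string in these 4 loci. This division of the genes was made after the matches were seen. The string itself was found throughout both sets of loci: 102 copies lay in the 532 kb of Lgr4, Lgr5, Lgr6 and Lrig1, and 100 in the 434 kb of the other 4. Shared regions covered 1.41% of the former and 2.14% of the latter, and held 0 and 10 of the copies. In Axin2, 3 of 12 copies (25%) lay in shared regions that cover 3.45% of the locus. For Rnf43 it was 2 of 21, for Tnfrsf19 2 of 22 and for Znrf3 3 of 45. The share of copies in shared regions over all loci was not measured. These 4 genes were picked for their matches, so the counts per gene show no excess. Lgr5, named above as a Wnt target with these 4 genes, had 0 of 36 copies in shared regions. A link between the strings and Wnt target status was not tested, and whether TCF/LEF factors were bound at these sites was not measured.

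The shares of the other 9 strings lay closer to those of all shared regions. FOXA strings were in 4.08% of the 98 regions (4.77% of all), GATA strings in 8.16% (10.1%) and AP-1 strings in 10.2% (13.1%). GC boxes were in 9.18% (7.0%), SOX strings (ACAATGG) in 4.08% (2.05%) and CTCF strings in 2.04% (2.40%). GRHL strings (AACCNGTT) were in 1.02% (2.30%). The HNF4 string (CAAAGTCC) and the ETS string (CCGGAAG) were in 0 of the 98 regions, against 1.94% and 3.52% of all. An HNF4 string and a TCF/LEF string can overlap by the bases CAAAG. In the RefSeq promoters of GRCm38.p6, from 250 bp before to 50 bp after a start, 6 of the 8 genes had an entry and 8 promoters in all. Lgr5 and Znrf3 had none. The TCF/LEF string was in 1 of the 8 promoters, that of the second Tnfrsf19 start, against 3.73% of 32851 promoters. There it lies outside the shared region that overlaps this promoter. Of the 8 promoters, 3 held a GC box (17.6% of all).

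**Figure D5:**
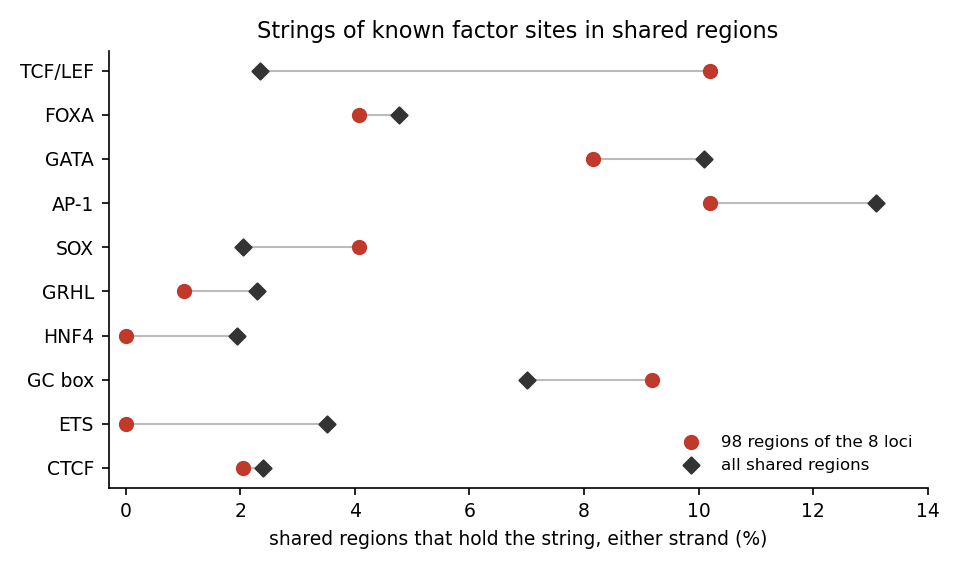
Share of shared regions that hold each of the 10 strings on either strand, in percent, for the 98 regions of the 8 loci (red circles) and for all 105606 shared regions (black diamonds). The TCF/LEF row has the widest gap, 10.2 against 2.35%.

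The rest of the pathway was read from lists by role. Region counts of single genes and list medians, here and in the next paragraph, are not set against locus length. Longer loci hold more regions, so each list was also read by length class. Above the median of their length class lay 0 of 4 R-spondin genes, 7 of 12 Wnt receptors and 6 of 8 destruction complex genes. So did 5 of 8 nuclear partners, 6 of 10 Wnt targets and 7 of 11 other stem cell markers, beside 44.0% of all loci. Of the ligands, 0 of 4 R-spondin genes had a shared region at a start, and Rspo4 had 4 shared regions in its locus, Rspo1 had 2, and Rspo2 and Rspo3 had 1 each. Each had a promoter peak in at least one replicate: Rspo2 and Rspo4 in replicate 1, Rspo1 in replicate 2, and Rspo3 in both, where the peaks did not overlap. Among the Wnt receptors and co-receptors, 11 of 12 were open at a start, with Lrp5 (17 shared regions) and Lrp6 (12) highest, followed by Fzd4, Fzd5 and Fzd8 with 7 each. Fzd10 had 0 shared regions and a promoter peak in replicate 2, where all 12 genes thus had one. All 8 genes of the beta-catenin destruction complex were open, with a median of 9.5 regions, led by Apc and Gsk3b (14 each) and Btrc and Gsk3a (12 each). All 8 nuclear partners of beta-catenin were open too. Tcf7l2 (34 regions) and Tcf7l1 (27), which encode TCF factors, and Bcl9l (20), a beta-catenin co-activator, had the most.

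Of 10 further Wnt target and feedback genes 9 were open, with 8 regions each in Cd44, Myc, Sox9 and Wif1. The secreted Wnt antagonist Dkk1 had no shared region at a start, but had a promoter peak in replicate 2, and 1 shared region in its locus. In replicate 2 alone all 10 had a promoter peak. Of 11 other genes reported as stem or progenitor markers in the stomach 10 were open, with Runx1 (18 regions), Prom1 (10) and Bmi1 (8) highest, and the water channel gene Aqp5 had no shared region at a start, but a promoter peak in replicate 2 and 4 shared regions in its locus. In replicate 2 alone all 11 had a promoter peak. Each of these shares stands beside the 66.4% of all protein-coding genes. TCF/LEF strings were in 9.80% of the 51 regions of the Wnt targets, in 3 genes: Cd44 (2 regions), Nkd1 (2) and Sp5 (1), the latter pair named after their values were seen. In the other lists of the pathway the share was 0% for the R-spondins, 1.39% for the Wnt receptors, 4.05% for the destruction complex, 3.67% for the nuclear partners and 1.41% for the other stem cell markers.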

How the data were processed

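DNase-seq peaks and hotspots of stomach from B6NCrl mice at 0 days of age were used, from 1 group of 2 replicates. Per the labels, coordinates are on build mm10. The peak signal is a whole number as deposited by the authors, with no unit or depth scaling stated. Hotspots as deposited carry a -log10 q of 1.3 to 100, with none between 6.0 and 100 in the loci described. Their deposited score was not used. The aligner and callers are not given in the sources used for this text, and read depth is unknown, which limits the weak sites that could be called. Only chromosomes 1 to 19, X and Y were kept.

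Peaks that replicate 1 and replicate 2 had in common (overlap of 1 bp or more) were merged into shared regions (pandas 2.3.3, checked against bedtools 2.31.1 on simulated data). A locus runs from 10 kb before to 10 kb after the gene (GENCODE M21, 27 repeated symbols dropped). A promoter is the 1 kb on either side of any annotated start. Distances run from the region's centre to the start of the reference transcript, along the gene. Strings were searched on both strands with pysam 0.24.0. With a single group no test was made. The members, lists and strings were chosen with earlier results of these data known. All 8 genes were named. From each pathway list the 3 members with the most shared regions (ties by symbol) and up to 2 without an open promoter were named. Fzd5, Fzd8, Gsk3a and Wif1, which tied with these, were added after their values were seen. Alternatives were the overlap, list length, stronger peaks, hotspots, flank, promoter width, the string, and each replicate alone.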

Additional observations from a re-analysis of the deposited data

How the results depend on the processing

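No setting changed the number of the 8 genes with a shared region at a promoter by more than 1: it was 7 for a promoter of 250 bp and 8 under the other alternatives, including each replicate alone. The 98 shared regions became 63 when only the stronger 50% of each list was kept, and lay between 79 and 147 under the other alternatives (119 to 128 with one replicate left out). The median per locus ran from 8 to 17.5 (14 to 14.5 with one replicate left out). The 10 regions with a TCF/LEF string became 6 with the stronger 50% of each list and 43 with the shorter string CTTTG, which 42.0% of all shared regions hold, and were 9 with either replicate left out. Leaving out the regions within 1 kb of a start of another gene, an alternative chosen after seeing the data, gave 90 regions and a median of 10.5, and took Lgr4 to 11, no longer above the upper quartile of its length class. Of 72 values for single genes under an alternative, 63 stayed within 1.5 times of the main value. The 9 others were Lgr5 with 13 regions, Lgr6 with 23 and Znrf3 with 29 for 50 kb on either side, Lgr5 with 3, Znrf3 with 8 and Axin2 with 3 for the stronger 50% of each list, Lgr5 with 13 without replicate 1 and 12 without replicate 2, and Axin2 with 16 without replicate 2. No paired analysis was possible because there is a single group. Depth is unknown and limits the weak sites, so a site found in one replicate is not shown to be closed in the other.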
